A study of Mus musculus with 36 samples.

Results

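Cortex of MBP29-hα-syn mice was compared with cortex of control mice, both without drug, over all genes expressed in the tissue. The members are the libraries whose titles give that tissue, genotype and diet. These are 3 MSA and 3 control libraries, 6 of the 36 libraries of the series. All came from male mice. The MSA animals carry the transgene of that line under a myelin basic protein promoter, so it is driven mainly in oligodendrocytes, and they model multiple system atrophy (MSA). The labels call the controls CTRL, and the protocol speaks of wild-type (WT) mice. The animals of both groups were fed standard AIN-76A chow from 4 weeks of age for 12 weeks. The labels give neither the strain background nor whether each library came from 1 animal. The p-values therefore cover the spread among these libraries, which may be technical. The other libraries are from cortex of mice given PLX5622, from corpus callosum and striatum with and without the drug, and from sorted microglia.

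Oligodendrocytes wrap axons in myelin, and multiple system atrophy is marked by inclusions in these cells. Myelin holds structural proteins such as MBP and a cytoskeletal scaffold that includes anillin. The nodes of Ranvier, the gaps between myelin segments, hold an extracellular matrix linked by proteins such as HAPLN2. Astrocytes and microglia respond to disease of white and grey matter with genes such as Gfap, with complement and with antigen presentation. The comparison asks what the transgene changes in cortex, where myelin is sparser than in corpus callosum.

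In bulk cortex, the genes that separated the genotypes most were few. Hapln2, of the nodes of Ranvier, and Anln, of myelin, were lower in the MSA libraries. The complement gene C4b, the astrocyte filament gene Gfap and the adhesion gene Mcam were higher. None of them passed the threshold of the main test. With edgeR's quasi-likelihood test and Benjamini-Hochberg adjustment, 0 of 14600 genes (0%) had an adjusted p under 0.05, and the smallest adjusted p was 0.334. At an unadjusted p under 0.05 there were 514 genes (3.52%), of which 205 (1.4%) were higher and 309 (2.12%) lower in MSA. DESeq2 called 3 of the 14581 genes to which it gave an adjusted p (0.0206%), namely Hapln2, Anln and C4b. Limma-voom with sample quality weights, chosen after seeing the data, also called 3, namely Hapln2, C4b and Mcam.

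The changes were spread around no change. Of all genes tested 51.5% had a log2 change (MSA minus control) above 0, and the median was 0.02. The median size of a log2 change was 0.29, against a median standard error of 0.34. The precision depended on abundance: the median standard error was 0.61 for the 3833 genes below a log2 CPM of 3 and 0.26 for the 4432 genes between 5 and 7. CPM are counts per 1e6 counts assigned to genes in that library. The groups did not overlap, with every MSA library above every control library, in 695 genes (4.76%), and the reverse held in 571 (3.91%).

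**Figure D1:**
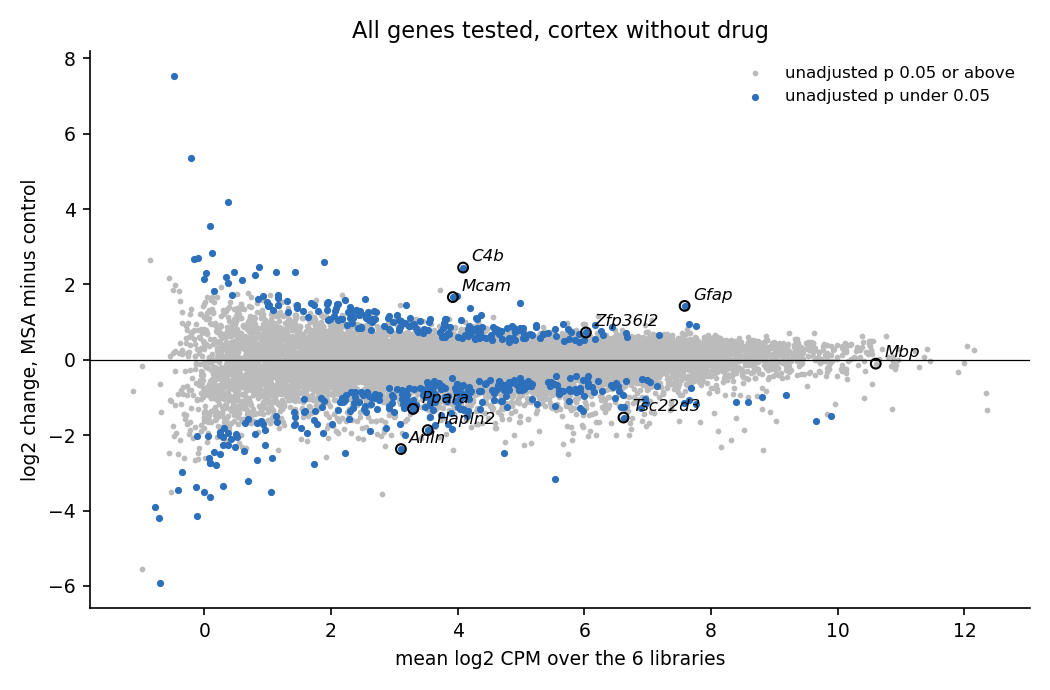
Each point is 1 of the 14600 genes tested, with its mean log2 CPM over the 6 libraries on the horizontal axis and the log2 change, MSA minus control, on the vertical axis. Blue points have an unadjusted p under 0.05 and circled genes are named; C4b, Mcam and Gfap lie above 0 and Hapln2, Anln, Tsc22d3 and Ppara below, while Mbp lies near it.

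Libraries held 5.87 to 7.72 M counts assigned to genes. Control library 3 stood apart from the other 5. Only 60.1% of its header total was assigned to genes, against 77.7 to 82.6% in the others. Transcripts under 1000 bases took 8.71% of its counts, against 2.14 to 2.70%, and the 24 ribosomal protein genes summed to 13846 CPM against 1421 to 2226 CPM. On the first principal component, with 54.9% of the variance, it lay at 100 and the others between -34.3 and 1.54. The part of these differences in the genotype comparison was not tested, and values without it, or without another library, are given beside the lists and genes they move most. Without it 0 genes had an adjusted p under 0.05 in edgeR and 161 an unadjusted p under 0.05. The cortical glutamatergic transporter gene Slc17a7 stood at 2042, 1744 and 847 CPM in the controls and at 1838, 1981 and 1829 CPM in MSA. This gene alone cannot show that tissue next to cortex was absent, and genes of striatal neurons are given below.

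**Figure D2:**
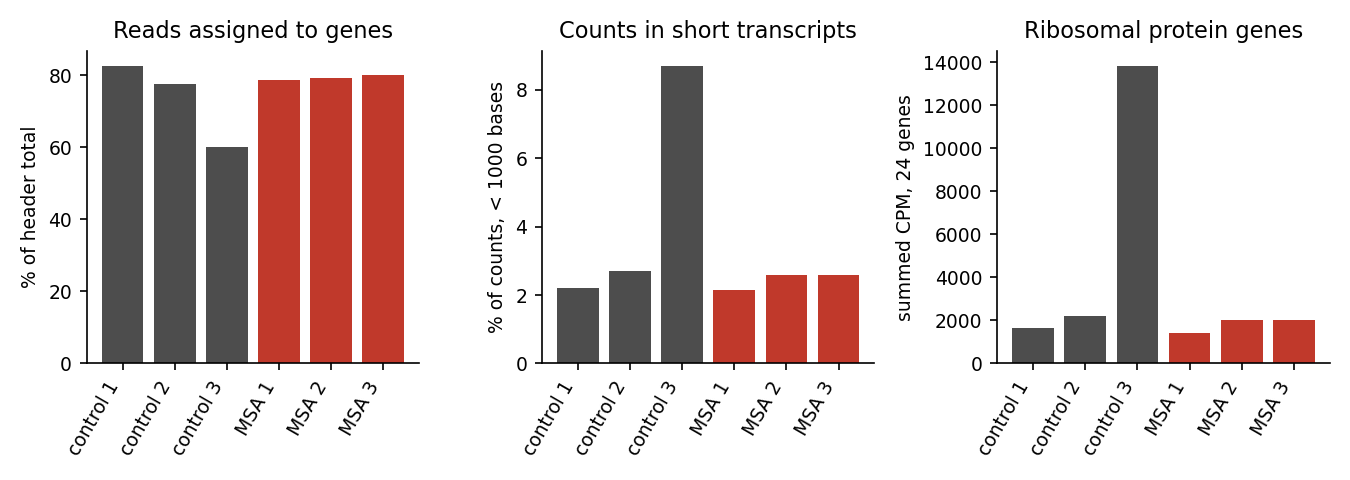
Bars show, for each of the 6 libraries, the share of the header total assigned to genes (%), the share of counts in transcripts under 1000 bases (%) and the summed CPM of 24 ribosomal protein genes; grey is control and red is MSA. Control library 3 is lowest in the first panel and highest in the other panels.

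Hapln2 (NM_022031, mm10 chromosome 3, 88021750 to 88027511, minus strand) encodes a link protein of the nodal matrix in central white matter. It stood at 16.1, 21.5 and 27.1 CPM in the controls and at 5.85, 5.79 and 5.90 CPM in MSA. All MSA libraries lay at nearly the same level, below the lowest control. The log2 change was -1.87 ± 0.29 (95% interval -2.50 to -1.23, adjusted p = 0.334 in edgeR), and -1.72 ± 0.33 without control library 3. Its adjusted p was 7.49e-05 in DESeq2, and over all the alternatives it ranged from that value to 1.00.

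Anln (NM_028390, chromosome 9, 22331214 to 22389206, minus strand) encodes anillin, an actin-binding scaffold of cell division that also assembles septin filaments in myelin. It stood at 11.6, 21.2 and 27.1 CPM in the controls and at 5.99, 2.21 and 3.22 CPM in MSA. Its log2 change was -2.37 ± 0.48 (adjusted p = 0.828 in edgeR), and -2.15 ± 0.50 without control library 3. The adjusted p in DESeq2 was 0.00606, the lowest over the alternatives.

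The myelin genes Mbp and Mog did not follow these. Mbp stood at 1287, 1999 and 1712 CPM in controls and at 910, 1525 and 2189 CPM in MSA, with wide overlap. Its log2 change was -0.10 ± 0.40, with a 95% interval of -0.96 to 0.76, and its sign turned without control library 2 (0.05) or MSA library 1 (0.17). Mog, for a protein of the outer myelin surface, had a log2 change of -0.01 ± 0.41, whose sign turned in 6 of 14 alternatives.

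Several genes of myelin adhesion and junctions were on the higher side. The axon-glia adhesion gene Mag stood at 70.1, 77.3 and 48.8 CPM in controls and at 79.2, 104 and 178 CPM in MSA, which did not overlap. Its log2 change was 0.88 ± 0.29, at an unadjusted p of 0.00929. The tight junction gene Cldn11 was at 40.4 to 72.4 CPM in controls and 74.4 to 152 CPM in MSA (0.93 ± 0.31). Cnp, for a myelin enzyme, stood at 172, 176 and 104 CPM in controls and at 175, 268 and 432 CPM in MSA, with control library 2 just above MSA library 1 (0.95 ± 0.35). MSA library 3 was the highest in each of these genes. Without it the change was 0.51 for Mag, 0.54 for Cldn11 and 0.57 for Cnp.

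As a list, structural myelin showed 0 of 19 members past the adjusted threshold, 4 higher and 1 lower at an unadjusted p under 0.05, and 11 above 0. Its median log2 change was 0.16, against 0.02 over all genes tested, and 0.24 without control library 3. Over the alternatives that median ran from 0.04 without MSA library 3 to 0.37 with the assigned share as a covariate. The 1 lower gene was Hapln2, a gene of the nodal matrix that was counted in this list. Myelin genes summed to 2845, 3913 and 4256 CPM in controls and to 2479, 3841 and 5682 CPM in MSA, which overlapped fully. Bulk tissue cannot tell fewer cells of a type from less RNA per cell. In the oligodendrocyte identity list 13 of 19 members were above 0 (median 0.43, or 0.21 without control library 3 and 0.17 without control library 2), with Mcam highest and Anln lowest. The lineage transcription factor gene Sox10 stood at 44.5, 27.7 and 15.3 CPM in controls and at 45.8, 44.1 and 70.2 CPM in MSA (0.86 ± 0.33, or 0.52 ± 0.27 without control library 3). Precursor genes were above 0 in 14 of 16 members (median 0.31), and in 11 of 16 without control library 3 (median 0.13). Pdgfra, the receptor that marks precursors, was at 37.9 to 55.8 CPM in controls and 58.6 to 63.7 CPM in MSA (0.31 ± 0.25, or 0.11 without control library 3). Genes of cholesterol synthesis, on which myelin growth depends, had a median of 0.01 over 23 members.

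**Figure D3:**
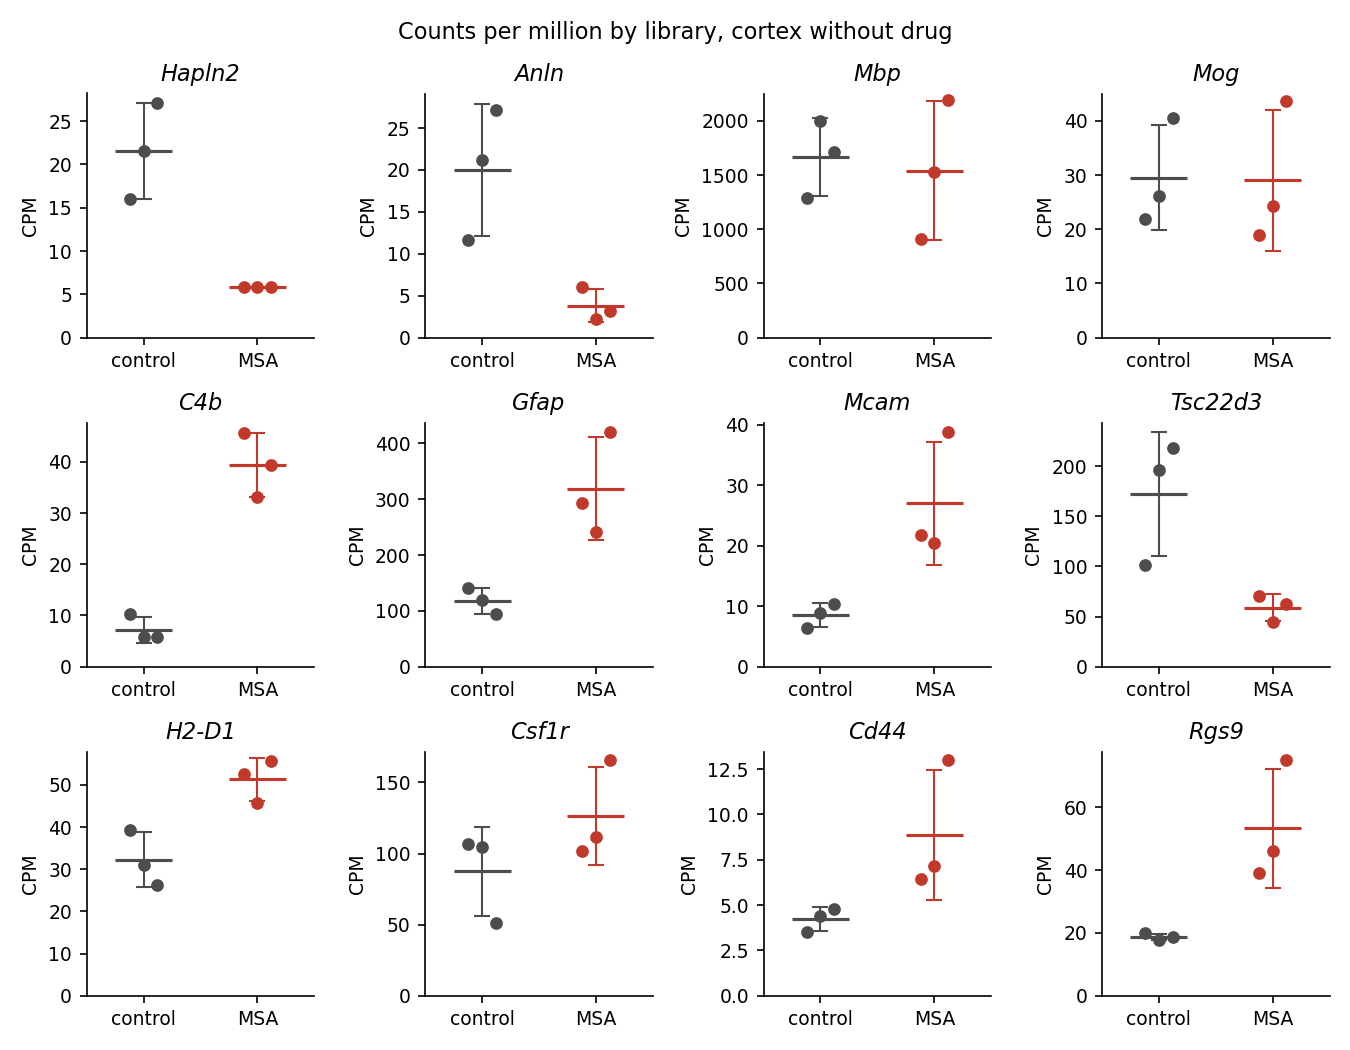
Each panel shows 1 gene, with CPM from 0 on the vertical axis, 1 point per library, a line at the mean of 3 libraries and a bar of 1 SD either way; grey is control and red is MSA. Hapln2 lies between 5.79 and 5.90 CPM in MSA and at 16.1 CPM or more in controls, and C4b lies at 33.2 CPM or more in MSA and at 10.2 CPM or less in controls, whereas Mbp, Csf1r and Mog overlap.

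C4b (NM_009780, chromosome 17, 34728381 to 34743897, minus strand) encodes complement component 4, which glia make. It stood at 10.2, 5.70 and 5.70 CPM in controls and at 45.6, 33.2 and 39.4 CPM in MSA. The lowest MSA library was far above the highest control. Its log2 change was 2.45 ± 0.42 (95% interval 1.55 to 3.35, adjusted p = 0.359 in edgeR), and 2.27 ± 0.45 without control library 3. Its adjusted p was 9.14e-05 in DESeq2 and 0.00214 in limma-voom with quality weights, and it reached 1.00 in other alternatives. C4a is a near-identical copy, so reads may be split between them and both values are uncertain. C4a stood at 0.558, 1.29 and 2.00 CPM in controls and at 4.09, 2.73 and 1.88 CPM in MSA (1.18 ± 0.65). The rest of the complement list did not follow: 6 of 13 members were above 0, with a median of -0.02, which was 0.36 without control library 3.

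Gfap (NM_010277, chromosome 11, 102887336 to 102897200, minus strand), the intermediate filament gene of astrocytes, stood at 140, 120 and 93.8 CPM in controls and at 293, 242 and 421 CPM in MSA. Its log2 change was 1.43 ± 0.39 (adjusted p = 0.828 in edgeR), and 1.25 ± 0.45 without control library 3. Among other reactive astrocyte genes, Cd44 and Vim had no overlap in the same direction. Cd44, for a hyaluronan receptor, was at 3.49 to 4.78 CPM in controls and 6.43 to 13 CPM in MSA (1.08 ± 0.36, or 0.71 without MSA library 3). Vim, for vimentin, was at 22.2 to 29.3 CPM in controls and 32.2 to 40.6 CPM in MSA (0.47 ± 0.22). Serpina3n, a secreted protease inhibitor of reactive astrocytes, overlapped, at 24.4, 7.90 and 14.5 CPM against 17.3, 23.8 and 46.2 CPM (0.90 ± 0.53, or 0.41 without MSA library 3). The reactive list as a whole had 10 of 20 members above 0 and a median of -0.04. Without control library 3, 14 of 21 members were above 0, against 47.3% of all genes, and the median was 0.08. Homeostatic astrocyte genes had a median of 0.04 over 20 members, of which 12 were above 0. That count was 1 of 20 without control library 3, with a median of -0.06. The gap junction gene Gjb6 was lower (-0.62 ± 0.29) and the transcription factor gene Sox9 higher (0.83 ± 0.35), both with overlap.

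Mcam (NM_023061, chromosome 9, 44134658 to 44142726, plus strand) encodes CD146, an adhesion molecule best known from endothelium and pericytes. In the lists used here it was counted under oligodendrocyte identity, not under endothelium or mural cells. It stood at 6.42, 8.94 and 10.3 CPM in controls and at 21.8, 20.4 and 38.7 CPM in MSA. The log2 change was 1.67 ± 0.38 (adjusted p = 0.828 in edgeR), and 1.77 ± 0.43 without control library 3. In limma-voom with quality weights its adjusted p was 0.0384, the lowest over the alternatives. Endothelial genes had a median of 0.25 over 20 members, from 0.07 without control library 3 to 0.54 without control library 1, and none of them had an unadjusted p under 0.05. The tight junction gene Cldn5 was at 47.9, 14.6 and 22 CPM in controls and at 45.9, 35.9 and 46.0 CPM in MSA. Genes of mural cells, which include pericytes, were above 0 in 9 of 13 members. Their median was 0.32, or 0.19 without control library 3 and 0.80 without control library 1. Of the 13, 2 were higher at an unadjusted p under 0.05 in edgeR, against 1.4% of all genes.

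Most microglial genes overlapped between the groups, and none of either microglial list was called. Csf1r, the receptor on which microglia depend, stood at 107, 104 and 51.3 CPM in controls and at 101, 112 and 166 CPM in MSA. The change was 0.53 ± 0.31 (adjusted p = 0.828 in edgeR), and 0.22 ± 0.25 without control library 3. In the homeostatic list 19 of 28 members were above 0, with a median of 0.23 that was 0.05 without MSA library 3, and 0 had an unadjusted p under 0.05. Of the 28, 2 were higher and 1 lower without overlap, against 4.76% and 3.91% of all genes. Without control library 3 these were 5 (17.9%) and 1 (3.57%), against 7.99% and 6.3% of all genes. The list summed to 845, 959 and 1117 CPM in controls and to 844, 1109 and 1367 CPM in MSA. Among genes of activated microglia 12 of 18 were above 0 (median 0.09, from 0.03 without control library 1 to 0.33 with no filter on counts). The lysosomal membrane gene Cd68 stood at 8.38, 8.03 and 8.01 CPM in controls and at 10.7, 16.0 and 16.3 CPM in MSA (0.83 ± 0.33), and the groups did not overlap. The chemokine gene Ccl6 lay the other way, at 3.91 to 14.2 CPM in controls and 0.731 to 3.58 CPM in MSA, also without overlap (-1.93 ± 0.78, or -1.20 without control library 3).

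Most tested genes of antigen presentation lay on the higher side. All 11 tested MHC class I genes had a log2 change above 0, with a median of 0.34, against 51.5% of all genes above 0. At an unadjusted p under 0.05, 3 of them were higher, against 1.4% of all genes. Without control library 3, 8 of 11 were above 0, with a median of 0.40. Of the 11, 1 was then higher at an unadjusted p under 0.05 in edgeR, against 82 of all 14866 genes. Without control library 1 the median was 0.60. H2-D1, a classical class I heavy chain gene, stood at 39.2, 31.1 and 26.3 CPM in controls and at 52.5, 45.8 and 55.7 CPM in MSA (0.67 ± 0.23, adjusted p = 0.828 in edgeR). It overlaps the row of its near-copy H2-L, so its counts are uncertain. In class II, 4 of 6 genes were above 0 (median 0.98, or 0.74 without control library 3). Cd74, the invariant chain, stood at 4.47, 1.68 and 1.69 CPM in controls and at 9.07, 6.81 and 7.77 CPM in MSA (1.58 ± 0.68). H2-Aa, a class II chain, was at 0.129 to 1.69 CPM in controls and 2.19 to 4.15 CPM in MSA (1.69 ± 0.76). The class II chain gene H2-Eb1 overlapped (1.14 ± 0.88), and Ciita, the class II transactivator gene, was lowest of the list at -1.02. Interferon-stimulated genes were divided, with 10 of 22 above 0 and a median of -0.01. Markers of lymphocytes summed to 0.977 to 5.24 CPM in controls and 3.24 to 5.76 CPM in MSA, with 5 genes of that list at 0 in all 6 libraries. Markers of monocytes and neutrophils summed to 8.16 to 13.7 CPM in controls and 11.3 to 17.7 CPM in MSA, and 2 genes of that list of 9 were tested. Csf3r, a receptor of neutrophils, had a log2 change of 0.79. S100a9, a neutrophil calcium-binding protein gene, lay the other way at 0.558, 0.647 and 2.16 CPM in controls and 0 CPM in all MSA libraries (unadjusted p = 0.0133 in edgeR). Both were named after their values were seen.

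General neuronal genes gave no shift that held without control library 3. Pan-neuronal genes had a median of 0.23 over 18 members, and -0.05 without that library. Genes of presynaptic release had a median of 0.29 over 22 members, and -0.04 without it, and those of inhibitory interneurons 0.30 over 19, and -0.08 without it. Pvalb, for the calcium buffer of fast-spiking interneurons, was at 33.4, 64.2 and 199 CPM in controls and at 39.5, 47.0 and 48.0 CPM in MSA. Its change of -1.11 ± 0.86 was -0.16 without control library 3. Erbb4, a neuregulin receptor gene of interneurons, was at 103, 80.0 and 46.8 CPM in controls and at 51.8, 36.6 and 46.6 CPM in MSA (-0.77 ± 0.29, or -1.07 ± 0.24 without control library 3 and -0.49 without control library 1). Immediate early genes, which neuronal activity and handling induce, were above 0 in 6 of 21 members (median -0.21), with none at an unadjusted p under 0.05. The direction of that median rested on single libraries: it was -0.48 without control library 3, 0.41 without control library 1 and 0.04 without MSA library 3.

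Genes of striatal projection neurons were higher in the MSA cortex libraries. All 18 had a log2 change above 0, with a median of 0.80, and 9 of 18 had no overlap between groups, against 4.76% of all genes. Without control library 3 it was 17 of 18 above 0, with a median of 0.72. Rgs9, a regulator of dopamine receptor signalling in striatum, stood at 19.8, 17.7 and 18.6 CPM in controls and at 39.2, 46.0 and 74.9 CPM in MSA (1.51 ± 0.67). It had the only unadjusted p under 0.05 in the list, 0.0434. Ppp1r1b, for DARPP-32, stood at 151, 175 and 132 CPM in controls and at 199, 194 and 413 CPM in MSA (0.82 ± 0.39). Pde10a, for a striatal phosphodiesterase, stood at 95.4, 115 and 83.5 CPM in controls and at 156, 128 and 208 CPM in MSA (0.75 ± 0.36). The receptor gene Drd1 overlapped (0.52 ± 0.40). The list summed to 1167, 1211 and 720 CPM in controls and to 1400, 1306 and 2296 CPM in MSA, against 16163 to 19175 CPM in control striatum. MSA library 3 was highest, and without it the list's median was 0.46, with 0.38 for Ppp1r1b and 0.19 for Drd1. The part of dissected tissue in these values was not tested.

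Some genes known from cholinergic neurons, which striatum and basal forebrain hold in larger numbers than cortex, also lay on the higher side. They form no list of their own, and Slc18a3, Chat and Lhx8 were named after their values were seen. Slc18a3, the vesicular acetylcholine transporter gene, stood at 0.698, 0.647 and 0.462 CPM in controls and at 2.34, 3.75 and 4.15 CPM in MSA (2.47 ± 0.66, unadjusted p = 0.00229 in edgeR). Chat, the acetylcholine synthesis gene, stood at 0.698, 1.42 and 1.23 CPM in controls and at 5.85, 2.21 and 8.98 CPM in MSA (2.33 ± 0.77). Slc18a3 lies within the Chat row on the same strand, so their counts are not independent. Lhx8, a transcription factor gene of these neurons, had 1 count in the 3 control libraries and 57 in the 3 MSA libraries. The ratio of its rates was 60.4, with an exact 95% counting interval of 10.4 to 2427 that covers counting error only. In control striatum Chat stood at 37.4 and 41.4 CPM.

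Tsc22d3 followed Hapln2 and Anln among the lower genes named by rule. Tsc22d3, for the glucocorticoid-induced leucine zipper, stood at 102, 197 and 218 CPM in controls and at 70.6, 44.3 and 62.0 CPM in MSA. On the log2 scale the change was -1.53 ± 0.39 (adjusted p = 0.828 in edgeR), and -1.39 ± 0.44 without control library 3. Sgk1, a kinase gene induced by glucocorticoids, was at 82.9 to 124 CPM in controls and 47.9 to 65.1 CPM in MSA (-0.83 ± 0.35). Fkbp5, a co-chaperone of the glucocorticoid receptor, overlapped, at 28.5, 85.3 and 38.2 CPM against 29.7, 34.9 and 39.5 CPM, and its change of -0.54 ± 0.60 turned to 0.06 without control library 2. Sgk1 and Fkbp5 were named after their values were seen.

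Ppara, Tiparp and Ppp1r3g were also among the 10 lower genes named by rule. Ppara, a nuclear receptor of fatty acid oxidation, stood at 15.2, 12.6 and 17.4 CPM in controls and at 5.41, 5.11 and 7.64 CPM in MSA (-1.30 ± 0.34). Ppp1r3g, a glycogen-targeting phosphatase subunit, stood at 29.9, 35.6 and 22.6 CPM in controls and at 12.6, 8.86 and 10.0 CPM in MSA (-1.48 ± 0.43). Tiparp, an ADP-ribosyltransferase gene induced by the aryl hydrocarbon receptor, was at 13.8, 42.6 and 26.2 CPM in controls and at 12.6, 10.0 and 10.6 CPM in MSA (-1.30 ± 0.36, or -0.85 without control library 2). Without control library 3 the changes were -1.23 for Ppara, -1.69 for Ppp1r3g and -1.40 for Tiparp. In Fam103a1, Zfp35, Dusp19 and Fbxl22, the other 4 of the 10 lower genes named by rule, control library 3 was the highest library. Their log2 changes of -1.70, -1.26, -1.90 and -1.38 were -0.97, -0.84, -1.24 and -0.77 without it. Fbxl22 overlaps the more abundant Herc1 on the other strand, so its counts are uncertain.

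Among the higher genes named by rule, Tmem98, for a membrane protein that binds the myelin factor MYRF, stood at 4.05, 4.53 and 3.85 CPM in controls and at 5.41, 10.4 and 14.3 CPM in MSA (1.28 ± 0.36). Zfp36l2, which promotes decay of mRNAs, stood at 62.4, 40.4 and 48.8 CPM in controls and at 86.4, 85.2 and 78.4 CPM in MSA (0.73 ± 0.22). Acaca, for the enzyme that commits acetyl-CoA to fatty acid synthesis, stood at 11.4, 19.6 and 4.93 CPM in controls and at 38.2, 22.1 and 34.0 CPM in MSA (1.38 ± 0.43). Its change was 0.97 without control library 3 and 1.92 without control library 2. The smooth muscle gene Smtn, the DNA repair gene Rad50, the AMPA receptor auxiliary subunit gene Cacng5 and the kinesin gene Kif19a had log2 changes of 0.97 to 1.40. Without control library 3 these ran from 0.78 to 1.18, with Tmem98 at 1.19 and Zfp36l2 at 0.66. Of the 10 higher genes, 7 lay on chromosome 11, which holds 1175 of the 14600 genes tested. Over that chromosome 1.79% of 1175 tested genes were higher at an unadjusted p under 0.05, against 1.4% of all genes, and its median log2 change was 0.01.

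Among lists with 10 or more genes tested, that of cytosolic ribosomal proteins was lowest, with 0 of 21 members above 0 and a median of -1.44. It was -0.12 without control library 3, with 5 of 21 above 0. Rpl4, a large-subunit gene, stood at 288, 436 and 1751 CPM in controls and at 290, 326 and 369 CPM in MSA. Nuclear genes of oxidative phosphorylation moved likewise, from a median of -0.63 to -0.01. Choroid plexus genes were below 0 in 12 of 12 members, with a median of -0.83, or -0.72 without control library 3. The direction rested on control library 1, without which the median was 0.25, and it was 0.97 with quality weights. They summed to 597, 26.5 and 191 CPM in controls and to 78.7, 47.9 and 269 CPM in MSA, which overlapped. Genes of the lysosome had a median of 0.12, those of the unfolded protein response 0.11 and those of heat shock -0.01. Without control library 3 these were 0.02, -0.03 and 0.02.

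**Figure D4:**
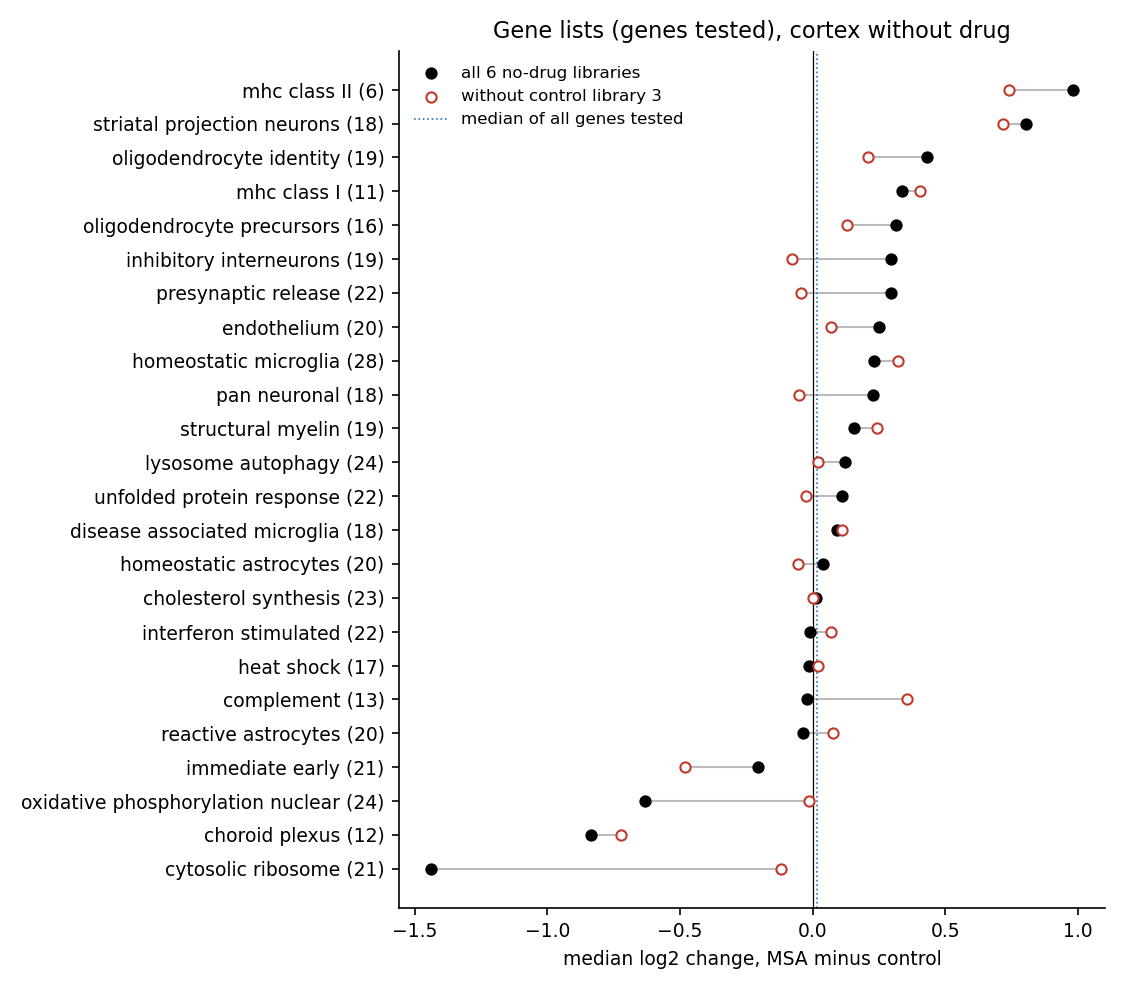
Each row is a gene list with its number of genes tested, and the horizontal axis is the median log2 change, MSA minus control, with all 6 libraries (filled) and without control library 3 (open). The ribosomal list moves from -1.44 to -0.12 and oxidative phosphorylation from -0.63 to -0.01, while striatal projection neurons stay at 0.80 and 0.72.

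The same genotype difference was measured in libraries that the no-drug cortex comparison did not use. Libraries of different tissues may come from the same animals, which the labels leave unstated. Cortex under PLX5622 had 3 libraries a group. Corpus callosum without drug had 3 control and 2 MSA libraries, and striatum without drug had 2 control and 3 MSA libraries. Under PLX5622 both of those tissues had 2 libraries a group. In cortex under PLX5622, at 1200 mg/kg, 22 genes were called by edgeR (0.151%), all higher in MSA. All 10 of the higher genes and 5 of the 10 lower genes had the same sign there. The share of all genes tested that kept their sign was not computed. This count and those over the other bulk comparisons therefore have no baseline. Control library 1 of that comparison resembled control library 3 without drug. Only 60.7% of its header total was assigned, 12.1% of its counts lay in transcripts under 1000 bases, and ribosomal protein genes summed to 20902.5 CPM. The ribosomal list had a median of -1.06 under PLX5622, and the part of this library in the shared signs was not tested. In every one of the 5 other bulk comparisons of genotype, 6 of the higher genes (C4b, Mcam, Gfap, Tmem98, Zfp36l2 and Smtn) and 3 of the lower genes (Hapln2, Anln and Fbxl22) had the sign seen in cortex without drug.

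Hapln2 had a log2 change of -1.42 ± 0.29 in cortex under PLX5622 (adjusted p = 0.12), -2.0 ± 0.42 in corpus callosum (0.121) and -2.46 ± 0.32 in striatum without drug (0.0304), all in edgeR. Anln passed the edgeR threshold in corpus callosum without drug (-2.64 ± 0.31, adjusted p = 0.00571) and in striatum without drug (-3.29 ± 0.32, adjusted p = 0.00489), where 0.321% and 0.0336% of genes were called. Under PLX5622 it also passed in corpus callosum (-2.12 ± 0.31, edgeR adjusted p = 0.0282) and striatum (-2.81 ± 0.37, edgeR adjusted p = 0.00615), where 0.195% and 0.222% of genes were called. C4b was at 2.90 ± 0.52 in corpus callosum (adjusted p = 0.0565) and 1.56 ± 0.22 in striatum (adjusted p = 0.0413), both in edgeR. In striatum without drug, C4b was the only gene called higher (0.00672% of genes). In sorted microglia C4b was at 0.17 ± 0.52 and Anln at -0.14 ± 0.35, and Hapln2, Gfap and Mcam were not among the genes tested. The titles of the microglia control libraries read MBP29_het, and those of the microglia MSA libraries read MBP29. The genotypes compared in microglia may therefore differ from those compared in cortex.

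Tsc22d3 had a change of -1.17 ± 0.35 in corpus callosum and -1.0 ± 0.41 in striatum without drug, but 0.25 ± 0.38 in cortex, 0.22 ± 0.37 in corpus callosum and 0.52 ± 0.46 in striatum under PLX5622. The difference between the diets in cortex was 1.78 ± 0.54 and was not called (edgeR adjusted p = 0.912). That test called 14 of 14600 genes (0.0959%), of which the 6 named here are microglial genes, and 551 (3.77%) had an unadjusted p under 0.05. Rgs9 had a change of 0.11 ± 0.66 in cortex under PLX5622, and the striatal list a median of 0.11 there.

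Whether the genotype difference differed between regions was tested directly. In edgeR's interaction test, 0 of 16080 genes (0%) differed between corpus callosum and cortex and 0 between striatum and cortex. At an unadjusted p under 0.05 there were 453 (2.82%) and 490 (3.05%), and DESeq2 called 3 in each. For Hapln2 the differences from cortex were -0.12 ± 0.51 and -0.57 ± 0.50, and for C4b 0.46 ± 0.63 and -0.88 ± 0.63. The structural myelin list had a median difference from cortex of -0.51 in corpus callosum and -0.57 in striatum, with none of its genes called.

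**Figure D5:**
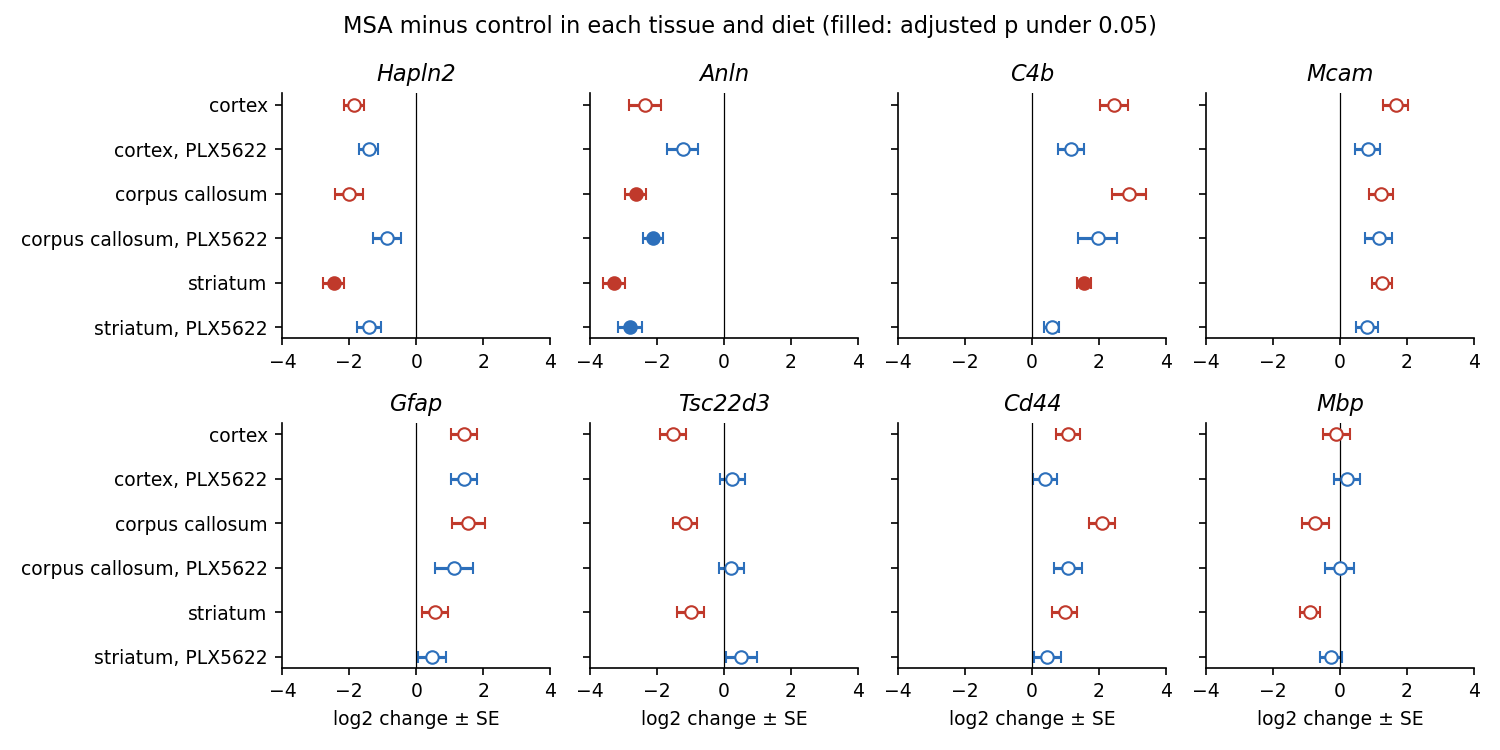
Each panel shows 1 gene, with the log2 change, MSA minus control, and its SE on the horizontal axis for 3 tissues without drug (red) and under PLX5622 (blue); filled points have an edgeR adjusted p under 0.05. Hapln2 and Anln lie below 0 and C4b, Mcam and Gfap above 0 in all 6 comparisons, while Tsc22d3 lies below 0 without drug and above 0 under PLX5622.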

How the data were processed

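Raw counts of reads, in whole numbers for 24940 genes and 36 poly(A) libraries, were deposited by the authors, and the file headers give a total for each library. STAR, HOMER, DESeq2 and the build mm10 are named in the submitters' processing notes, without versions. The sources used here do not give the strand setting of the counting. A deposited table in TPM was not used. The members and lists were chosen with earlier results of these data known.

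Groups follow the titles. The 12 cortex libraries were fitted together with 4 group means, after filterByExpr (minimum count 10) and TMM scaling. The 2-sided quasi-likelihood test of edgeR 4.0.16 in R 4.3.3 was used, with Benjamini-Hochberg adjustment and a threshold of 0.05, and was tested on simulated data. CPM use the counts assigned to genes. Lists (41, with 682 entries, 4 absent from the table) were described by counts and medians, with no set test.

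The rule named Mbp and Csf1r, then the 10 higher and 10 lower genes of smallest p among those whose groups did not overlap and whose log2 CPM averaged 2 or more, and 3 members per described list. Genes without a standard symbol were not named, and some results are not given. Pairs of libraries within a group differed by a chi-square of 10.1 to 133 per degree of freedom, where counting noise gives about 1, so none was a copy.

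Alternatives were DESeq2 1.42.0, RLE size factors, no filter on counts, a replicate block, the 6 libraries alone, the assigned share as a covariate, libraries under 70% assigned left out, each library left out, and limma 3.58.1 voom with sample quality weights, the last chosen after seeing the data.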

Additional observations from a re-analysis of the deposited data

Results flagged for a closer look

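The genotype difference in cortex differed between the diets for 6 microglial genes named here, by edgeR's interaction test over all 14600 genes, in which 14 genes were called (0.0959%), all with a larger difference under PLX5622. Csf1r had no counts in the 3 control libraries under PLX5622 and 18.8 to 25.7 CPM in the 3 MSA libraries under PLX5622. Its interaction of 9.71 on the log2 scale (adjusted p = 0.00111 in edgeR), like the 9.67 of the complement gene C1qc (adjusted p = 0.000411 in edgeR), rests on a group with no counts, depends on the prior count and is no bound. The fractalkine receptor gene Cx3cr1 stood at 0 to 0.459 CPM in those controls and at 12.4 to 18.8 CPM in those MSA libraries, with an interaction of 6.33. The interactions of P2ry12, Laptm5 and Tmem119 were 4.29, 3.82 and 3.74. Without drug none of these genes separated the groups.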

How the results depend on the processing

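With the cause not tested, the count of 0 genes called in cortex without drug was 3 in DESeq2 and 3 in limma-voom with quality weights. It was 0 in the 12 other alternatives, whose counts at an unadjusted p under 0.05 ran from 161 (without control library 3) to 1740 (without control library 1). The 22 genes called in cortex under PLX5622 were 51 in DESeq2 and 14 with a replicate block. The block gave 0 calls without drug, and 343 genes at an unadjusted p under 0.05. The deviations of same-numbered libraries correlated at 0.28, -0.01 and 0.11, so not every pair deviated together. The labels do not say what a shared number marks, and the block was not taken as a pairing. The counts of 0 for corpus callosum and for striatum against cortex were 3 and 3 in DESeq2. Over 14 alternatives and 119 named genes, 1622 of 1659 values kept direction and side of the threshold, 6 passed it (Hapln2 and C4b in DESeq2 and with quality weights, Anln in DESeq2, Mcam with quality weights), and 31 changed sign. With 1 library left out, values that changed sign spanned -0.42 to 0.17 in Mbp, -2.71 to 0.00789 in Aqp1, -0.42 to 0.23 in Mog, -0.46 to 0.77 in Aif1, -0.35 to 0.51 in Trem2, -0.11 to 0.23 in Sst, -0.0468 to 0.54 in Slc17a7 and -0.83 to 0.0629 in Fkbp5. With the assigned share as a covariate, values of changed sign were 0.12 in Hspe1, 0.26 in Mog, 0.36 in Aif1, 0.57 in Trem2, 0.00509 in Pvalb and -0.12 in Sst. Without libraries under 70% assigned they were 0.00818 in Hapln1, 0.25 in Mog, 0.79 in Aif1, 0.53 in Trem2, -0.0924 in Sst and -0.0288 in Slc17a7. With quality weights they were 1.20 in Kcnj13, 0.0802 in Mog, 0.55 in Aif1 and 0.31 in Trem2, and with the replicate block 0.20 in Aif1 and 0.00491 in Trem2. List medians moved by more than 1 SD between replicates in 57 of 560 values. With 3 libraries a group in cortex without drug, the median size of a log2 change lay within the median standard error.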
